A study of Mus musculus with 12 samples.

Results

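The p53 target genes described here are 10 genes of the islets of NOD mice, chosen by symbol: Cdkn1a, Trp53inp1, Mdm2, Bbc3, Ccng1, Phlda3, Bax, Zmat3, Sesn1 and Gdf15. All 10 were found among the 13703 genes of the authors' comparison table and the 49315 genes of the count table. The anti-CD3 group held 6 libraries and the IgG group 6 libraries of poly(A) RNA from pancreatic islets of female NOD/ShiLtJ wild-type mice, a strain in which lymphocytes infiltrate the islets and destroy beta cells. Mice with normal blood glucose entered at 9 weeks of age and were given an antibody against CD3, a part of the T cell receptor complex, at 2.5 mg/kg, or a control IgG, in weekly doses over 4 weeks. Islets were taken 2 to 3 days after the last dose. The labels do not tell whether islets of several mice were pooled, so p-values measure only the spread between these samples, which may be technical.

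The transcription factor p53 is stabilised by DNA damage and other stress and switches on genes that stop the cell cycle, repair or eliminate the cell, and restrain p53 itself. Its targets include Cdkn1a, which encodes the cyclin-dependent kinase inhibitor p21 and is widely used as a marker of senescence, a durable growth arrest accompanied by the release of secreted factors. Senescent beta cells have been described in the islets of NOD mice, which makes these genes a readout of interest in this tissue. The libraries hold RNA of whole samples, with a large share of counts from acinar genes of the exocrine pancreas. The values given here therefore cannot be assigned to beta cells or to any other cell type. Several of the 10 genes, among them Gdf15, Sesn1 and Bbc3, can also be induced by stress pathways that do not need p53.

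Values are deposited normalised counts, meaning the count of a gene divided by a size factor of its library, and log2 fold changes, with anti-CD3 on top, come from edgeR's quasi-likelihood test on the raw counts. Total counts per library ran from 10994337 to 19284740 in anti-CD3 and from 11891132 to 17628347 in IgG. Acinar genes of the exocrine pancreas took 68.5% to 72.3% of the counts in anti-CD3 libraries and 64.8% to 71.7% in IgG 1 to IgG 4, against 55.3% in IgG 5 and 32.4% in IgG 6. Endocrine markers were present in every library, with a mean log2 CPM of 6.53 to 7.36 in anti-CD3 and 6.78 to 7.22 in IgG. All 15 T cell markers had lower values in anti-CD3 (median -1.17 on the log2 scale). Of them, 0 passed an adjusted p of 0.05 with edgeR, and DESeq2 also called 0. An unadjusted p under 0.05 was found for 4, where 18.4% of all tested genes lay under that level, 8.68% lower in anti-CD3. The mean log2 CPM of the T cell markers ran from -0.998 to 2.30 in anti-CD3 and from -0.62 to 3.98 in IgG. IgG 6 was the highest library. IgG 2, the next highest IgG library, was at 2.22, below the highest anti-CD3 library. The part of IgG 6 in the lower values was not tested. In bulk samples fewer cells of a type and less RNA per cell cannot be told apart.

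The promoters of 8 of the 10 genes were in the RefSeq promoter table (GRCm38.p6), in 13 windows that reach from 250 bases before a transcript start to 50 after it. They were searched for the p53 response element consensus, a pair of decamers separated by 0 to 13 bases; the decamer reads the same on both strands, so 1 scan covers both. A pair with no mismatch was found in 1 window, at Cdkn1a, against 0.0731% of all 32851 windows, and pairs with at most 1 mismatch were found at Cdkn1a, Bax and Ccng1, against 1.09% of all windows. Bbc3 had a best pair with 3 mismatches in 2 of its windows, a level that 45.1% of all windows reach. A match describes these letters and is not a measured binding site. Sequence outside these windows was not searched, so a window without a close match does not mean that the gene lacks an element. The 4 excerpts below show the decamers in capitals, 5′ to 3′ along the gene's own strand, and are shown as the stretches that hold the pairs of Cdkn1a, Bax and Ccng1 closest to the consensus, with Bbc3 as an example at 3 mismatches.
Cdkn1a, chr17:29090872-29090971, plus strand: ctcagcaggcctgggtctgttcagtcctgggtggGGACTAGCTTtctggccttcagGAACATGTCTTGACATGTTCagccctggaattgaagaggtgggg
Bax, chr7:45467049-45467148, minus strand: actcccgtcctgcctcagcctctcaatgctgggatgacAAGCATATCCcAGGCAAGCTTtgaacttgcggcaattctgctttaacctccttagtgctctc
Ccng1, chr11:40755422-40755521, minus strand: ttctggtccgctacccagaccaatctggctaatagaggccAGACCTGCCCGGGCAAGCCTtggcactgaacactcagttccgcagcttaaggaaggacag
Bbc3, chr7:16309446-16309545, plus strand: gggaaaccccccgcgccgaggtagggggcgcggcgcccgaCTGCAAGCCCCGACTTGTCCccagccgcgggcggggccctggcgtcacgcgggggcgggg

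In Cdkn1a the capitals hold 3 decamers. The upstream decamer and the middle decamer form the pair without mismatch, 12 bases apart, and the middle and last, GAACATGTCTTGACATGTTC, lie side by side with 1 mismatch. This pair belongs to the upstream of the 2 annotated Cdkn1a windows, and the downstream window had no pair with fewer than 5 mismatches. The best pair at Sesn1 had 2 mismatches, as 10.1% of all windows did at that number or fewer, and the best pairs at Mdm2, Phlda3 and Gdf15 had 4 each.

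Across the 10 genes 0 passed edgeR at an adjusted p of 0.05, where 0.0762% of the 13115 tested genes did. The median log2 fold change of the 10 genes was 0.25, with 6 genes higher and 4 lower in anti-CD3, against a median of -0.05 over all tested genes, of which 44.8% were higher. This median of the 10 genes was 0.13 without IgG 5 and IgG 6, 0.13 given an acinar covariate and 0.041 with an offset for transcript length. It was 0.34 with limma-voom. With 1 library left out it ran from 0.16 (without anti-CD3 5) to 0.31 (without IgG 1). Of the 10 genes Trp53inp1 had the highest log2 fold change and Mdm2 the lowest. At an unadjusted p under 0.05 there was 1 of the 10 (Trp53inp1), where 18.4% of all tested genes lay under that level, 9.68% higher and 8.68% lower in anti-CD3. DESeq2 called 1 of the 10, again Trp53inp1, against 4.04% of its genes (2.81% higher and 1.23% lower), and limma-voom with quality weights called 0. Trp53inp1 was also the only one of the 10 with an adjusted p under 0.05 among the authors' deposited values, against 4.55% of the genes with an adjusted p there (3.24% higher and 1.31% lower). In none of the 10 genes were the groups free of overlap, which 1.72% of the genes in the comparison table were. An exact permutation test over all 924 regroupings gave an unadjusted p under 0.05 for 2 of the 10, against 17.7% of genes, and an adjusted p under 0.05 for 0 of the 10 and for 0 of all genes.

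**Figure D1:**
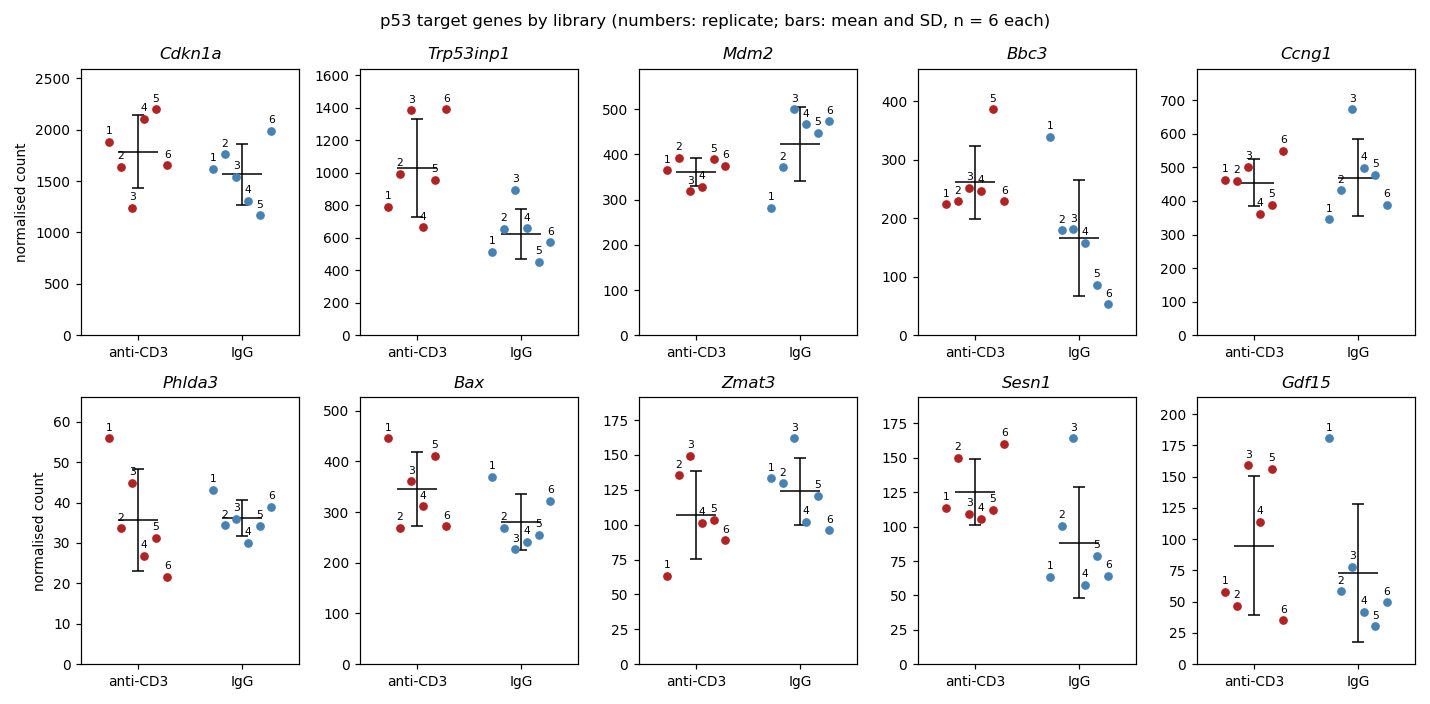
Normalised count of each of the 10 genes (vertical axes, each from 0) in the 6 anti-CD3 libraries (left, red) and the 6 IgG libraries (right, blue); numbers are replicates, and black bars give the mean and SD. Trp53inp1, Bbc3 and Sesn1 have all 6 anti-CD3 libraries above the IgG mean, Mdm2 has all 6 below it, and the groups overlap in every panel.

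Among the genes that act back on p53, Trp53inp1 was higher in anti-CD3 and Mdm2 was lower, neither past the edgeR threshold. Trp53inp1 encodes a stress-induced protein that promotes p53 activity and autophagy. Its normalised counts had a minimum of 664, a median of 976 and a maximum of 1392 in anti-CD3, against 454, 612.5 and 895 in IgG. The groups overlapped through IgG 3, the highest IgG library, which lay above 2 of the 6 anti-CD3 libraries, while the other 5 IgG libraries were below every anti-CD3 library. edgeR gave a log2 fold change of 0.73 ± 0.21 (SE; 6 libraries a group; edgeR adjusted p = 0.115), a 1.66-fold ratio, with 6 of 6 anti-CD3 libraries above the IgG mean. The exact permutation test gave p = 0.0108 (two-sided, n = 6 per group; adjusted p = 0.166 over all genes). DESeq2 on the same counts gave 0.72 ± 0.22 (SE; adjusted p = 0.0385), and the authors' deposited table lists 0.72 with an adjusted p of 0.0349. Without IgG 5 and IgG 6, an alternative added after the data were seen for DESeq2, Trp53inp1 did not pass DESeq2 (0.60 ± 0.23, SE; adjusted p = 0.166), and edgeR gave 0.60 ± 0.22 (SE; adjusted p = 0.359).

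Mdm2 encodes the ubiquitin ligase that targets p53 for degradation and is itself a p53 target. Its normalised counts were 318 at the lowest, 369.6 at the median and 392 at the highest in anti-CD3, against 282, 457 and 499.7 in IgG. All 6 anti-CD3 libraries lay below the IgG mean, and the overlap came from IgG 1 and IgG 2, the lowest IgG libraries. Mdm2 had a log2 fold change of -0.23 ± 0.14 (SE; edgeR adjusted p = 0.412). Anti-CD3 libraries were close to each other, with a coefficient of variation of 8.69%, against 19.4% in IgG.

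Ccng1, which encodes cyclin G1, a target that recruits a phosphatase to Mdm2, differed little. The normalised counts were 362 at the lowest, 462 at the median and 549.7 at the highest in anti-CD3, against 345, 454 and 673 in IgG. IgG 3 was the highest library and the other 5 IgG libraries lay within the anti-CD3 range or just below it. Ccng1 had a log2 fold change of -0.04 ± 0.17 (SE; edgeR adjusted p = 0.911), and its sign turned when anti-CD3 4, anti-CD3 5 or IgG 3 was left out. Mdm2 and Ccng1 were the pair of the 10 genes with the most alike pattern: after centring each gene on its mean, their log2 CPM differed by 0.19 per library on average.

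The growth arrest gene Cdkn1a was the most abundant of the 10 per kilobase of transcript, and its difference did not pass the test. Its normalised counts were 1239 at the lowest, 1768 at the median and 2199 at the highest in anti-CD3, against 1166, 1580.2 and 1992 in IgG. Anti-CD3 3 was the lowest anti-CD3 library and IgG 6 the highest IgG library, and only anti-CD3 4 and anti-CD3 5 lay above all IgG libraries. For Cdkn1a edgeR gave a log2 fold change of 0.19 ± 0.17 (SE; edgeR adjusted p = 0.542), a 1.14-fold ratio. Over the 12 libraries the highest value was 1.89 times the lowest. The AC167363.2 locus overlaps Cdkn1a on the other strand, and without a stated strand setting their reads cannot be told apart.

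The 5 genes with the pattern closest to Cdkn1a over the 12 libraries, among tested genes with a mean log2 CPM of at least 3, were Sav1, Anxa11, Gas6, Clk3 and Litaf. Their centred log2 CPM differed from that of Cdkn1a by 0.073 per library for Sav1 and by 0.12 to 0.13 for the other 4. When values were centred within each group, 3 of the 5 remained among the closest 5. All 5 had small differences between the groups, from 0.11 for Gas6 to 0.20 for Litaf on the log2 scale, and 0 of the 5 passed edgeR (adjusted p of 0.477 or more).

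Of the 3 genes tied to cell death, Bbc3 varied most between libraries, Bax had a higher mean in anti-CD3 without passing the test, and Phlda3 had similar means. Bbc3 encodes PUMA, a BH3-only protein that disables anti-apoptotic BCL-2 proteins. Its normalised counts were 224 at the lowest, 238 at the median and 386 at the highest in anti-CD3, against 52.8, 169 and 339.8 in IgG. Anti-CD3 5 stood above the other anti-CD3 libraries, which lay between 224 and 252, and in IgG the libraries spread from IgG 1, above 5 of the 6 anti-CD3 libraries, down to IgG 5 at 86.5 and IgG 6 at 52.8. The highest library was 7.32 times the lowest, the widest range of the 10 genes. Bbc3 had a log2 fold change of 0.66 ± 0.35 (SE; edgeR adjusted p = 0.335), and all 6 anti-CD3 libraries were above the IgG mean.

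IgG 5 and IgG 6, the lowest in Bbc3, were also the lowest in acinar share. The log2 fold change of Bbc3 was 0.28 ± 0.22 without IgG 5 and IgG 6 (SE; edgeR adjusted p = 0.717) and 0.10 ± 0.31 when the acinar score was a covariate (SE; edgeR adjusted p = 0.950). Without IgG 1, the library with the highest Bbc3 of its group, it was 1.02 ± 0.30 (SE; edgeR adjusted p = 0.0975). The acinar score, the mean log2 CPM of 29 tested acinar markers, was 13.02 to 13.47 in anti-CD3 and 10.54 to 13.21 in IgG, and its part in the Bbc3 difference was not tested beyond these fits. Over the same markers 28 of 29 were higher in anti-CD3.

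Bax encodes a pore-forming protein of the mitochondrial outer membrane that executes apoptosis. The normalised counts were 269 at the lowest, 336 at the median and 446 at the highest in anti-CD3, against 226, 262 and 369 in IgG. Anti-CD3 1 and anti-CD3 5 were above all IgG libraries, and 4 IgG libraries were below all anti-CD3 libraries. Bax had a log2 fold change of 0.30 ± 0.17 (SE; edgeR adjusted p = 0.346) and -0.01 ± 0.14 with an offset for transcript length (SE; edgeR adjusted p = 0.978). Its longest annotated transcript, at 1100 bases, is the shortest of the 10 genes. Bax also overlaps the protein-coding gene Gm45808 on its own strand, and no source used here says how reads of both were assigned.

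Phlda3 encodes a pleckstrin homology protein that competes with Akt for membrane lipids and so dampens survival signalling. Phlda3 had normalised counts of 21.6 at the lowest, 32.5 at the median and 55.9 at the highest in anti-CD3, against 30.0, 35.2 and 43.1 in IgG. The anti-CD3 libraries surrounded the IgG libraries on both sides, with 2 above and 2 below all of them. Phlda3 had a log2 fold change of -0.03 ± 0.25 (SE; edgeR adjusted p = 0.968). With raw counts of 16 to 98 per library, Phlda3 was the gene with the fewest reads of the 10.

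Sesn1 and Zmat3, which act downstream of p53 in growth restraint, differed in opposite directions without passing the test. Sesn1 encodes sestrin 1, a stress-induced inhibitor of mTORC1. Sesn1 had normalised counts of 106 at the lowest, 113 at the median and 160.3 at the highest in anti-CD3, against 57.5, 71.5 and 164 in IgG. As for Trp53inp1, IgG 3 was the exception: it was the highest of all 12 libraries, while the other 5 IgG libraries were below every anti-CD3 library. Sesn1 had a log2 fold change of 0.51 ± 0.25 (SE; edgeR adjusted p = 0.284), with 6 of 6 anti-CD3 libraries above the IgG mean. The exact permutation test gave p = 0.0476 (two-sided, n = 6 per group; adjusted p = 0.278 over all genes). Without IgG 3 the log2 fold change of Sesn1 was 0.79 ± 0.20 (SE; edgeR adjusted p = 0.0774), without IgG 5 and IgG 6 it was 0.38 ± 0.27, and an acinar covariate gave 0.28 ± 0.27 (SE). The 9930024M15Rik locus overlaps Sesn1 on the same strand.

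Zmat3 encodes a zinc finger RNA-binding protein. Zmat3 had normalised counts of 63.2 at the lowest, 102 at the median and 149 at the highest in anti-CD3, against 96.1, 125 and 162 in IgG. Anti-CD3 1 and anti-CD3 6 were below all IgG libraries and no anti-CD3 library was above all of them. Zmat3 had a log2 fold change of -0.20 ± 0.21 (SE; edgeR adjusted p = 0.621).

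Gdf15, which encodes a secreted stress cytokine of the TGF-beta superfamily, varied widely within both groups. Gdf15 had normalised counts of 35.0 at the lowest, 86.0 at the median and 159 at the highest in anti-CD3, against 30.4, 53.9 and 181 in IgG. In anti-CD3, libraries 3, 4 and 5 were high and 1, 2 and 6 were low, and in IgG only IgG 1 was high, the highest of all 12. Coefficients of variation were 58.8% in anti-CD3 and 75.4% in IgG, the largest of the 10 genes in each group. Gdf15 had a log2 fold change of 0.38 ± 0.48 (SE; edgeR adjusted p = 0.693). It was 0.90 ± 0.41 without IgG 1 (SE; adjusted p = 0.226), 0.17 without anti-CD3 3 and 0.07 without IgG 5 and IgG 6.

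**Figure D2:**
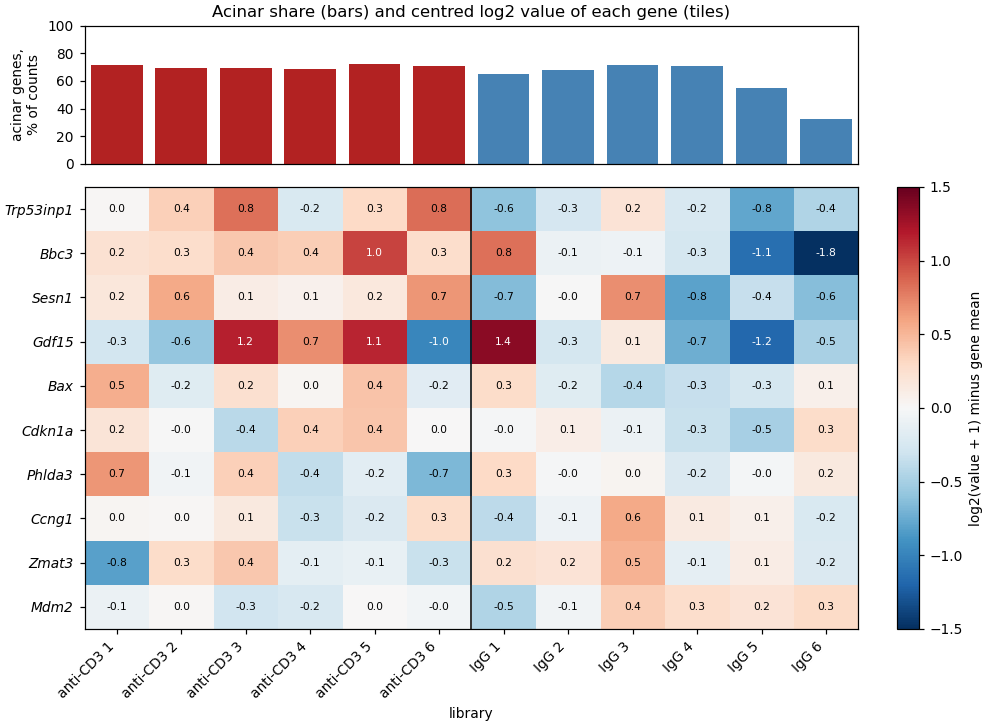
Upper panel: share of counts from acinar genes in each library, in percent. Lower panel: log2(normalised count + 1) of each gene minus its mean over the 12 libraries, anti-CD3 libraries left of the line and IgG libraries right of it. Gdf15 and Bbc3 have the strongest tiles, with Bbc3 lowest in IgG 5 and IgG 6, the libraries whose acinar shares are 55.3% and 32.4%.

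Read by library, the 10 genes did not move as a block. The number of genes above their own mean was 5 to 8 per library in anti-CD3 and 2 to 7 in IgG. IgG 3 was among the libraries with the most genes above the mean, with 7, and was the highest library for 4 genes, Mdm2, Ccng1, Zmat3 and Sesn1. IgG 5 was the lowest library for 3 genes, Cdkn1a, Trp53inp1 and Gdf15. IgG 1 was the lowest for Mdm2 and Ccng1 and the highest for Gdf15. The per-library median of the 10 centred values was -0.06 to 0.30 in anti-CD3 and -0.31 to 0.17 in IgG, on the log2 scale, so the groups overlapped.

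Per kilobase of the longest annotated transcript the levels ordered the genes as Cdkn1a, Bax, Trp53inp1, Ccng1, Mdm2, Bbc3, Gdf15, Sesn1, Phlda3 and Zmat3. Cdkn1a had 859 ± 170 normalised counts per kilobase in anti-CD3 and 752 ± 144 in IgG (SD, n = 6 each), and was above Bax in 12 of 12 libraries. Bax had 314 ± 66.7 in anti-CD3 and 255 ± 49.6 in IgG (SD), and was above Trp53inp1 in 11 of 12 libraries. The neighbours Trp53inp1 and Ccng1, Ccng1 and Mdm2, Mdm2 and Bbc3, and Sesn1 and Phlda3 could not be ordered, the first of each pair being higher in only 6, 7, 5 and 6 of 12 libraries. Zmat3 was the lowest, with 13.7 ± 4.01 per kilobase in anti-CD3 and 15.9 ± 3.06 in IgG (SD), and was below Phlda3 in 12 of 12.

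**Figure D3:**
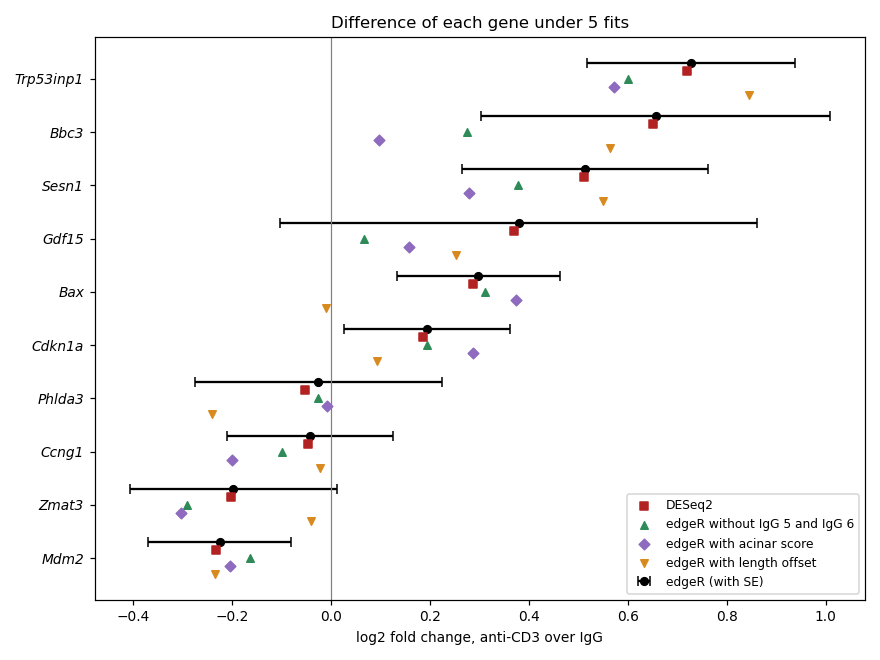
Log2 fold change (horizontal axis, anti-CD3 divided by IgG) for each gene under 5 fits; horizontal bars are the SE of the edgeR fit. Trp53inp1 stays between 0.57 and 0.84, Bbc3 lies at 0.66 in the edgeR fit and at 0.10 given an acinar covariate, and Bax lies at 0.30 and at -0.01 with the length offset.

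Other p53 target genes, a list of 43 genes such as DNA repair and death receptor genes, were divided. Of 39 tested, 22 were higher and 17 lower in anti-CD3, and the median was 0.06 on the log2 scale (-0.02 without anti-CD3 3 and -0.0088 without anti-CD3 2). None of them, 0 of 39, passed edgeR. An unadjusted p under 0.05 was found for 6 higher and 0 lower genes, against 9.68% and 8.68% of all tested genes. DESeq2 called 6, all higher, against 2.81% of all its genes higher and 1.23% lower. The 3 with the smallest p were Ddit4, an inhibitor of mTORC1, at 1.25 ± 0.24 (SE; edgeR adjusted p = 0.0646), Gadd45a, a growth arrest and DNA damage gene, at 1.20 ± 0.24 (adjusted p = 0.0659), and Rps27l, a ribosomal protein paralogue, at 1.02 ± 0.23 (adjusted p = 0.0659). Gadd45a had 1070.0 ± 228 normalised counts in anti-CD3 and 467 ± 194 in IgG (SD, n = 6 each). With the length offset the value of Rps27l, whose longest transcript has 575 bases, was 0.51.

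Among regulators of p53 and kinases of the DNA damage response 0 genes passed edgeR, Trp53 itself, which encodes p53, included. Of 24 tested genes of a list of 26, 6 were higher and 18 lower, with a median of -0.14. Leaving out IgG 6 put this median at -0.07 and leaving out IgG 5 and IgG 6 at -0.08, and it was -0.04 given an acinar covariate and -0.03 with the length offset. Trp53 had 171 ± 13.7 normalised counts in anti-CD3 and 197 ± 53.2 in IgG (SD, n = 6 each), a log2 fold change of -0.20 ± 0.17 (SE; edgeR adjusted p = 0.525). Mdm4, which encodes the p53 inhibitor related to Mdm2, was at -0.19 ± 0.14 (SE; edgeR adjusted p = 0.483). edgeR called 0 of this list and DESeq2 2, where DESeq2 called 4.04% of all its genes. An unadjusted p under 0.05 was found for 2 higher genes and 1 lower, against 9.68% and 8.68% of all tested genes. The higher pair was Rpl11 and Rpl5, ribosomal proteins known to bind and inhibit MDM2, at 0.93 ± 0.18 and 0.69 ± 0.18 (SE; edgeR adjusted p = 0.0646 and 0.0887), and the lower was Ep300, an acetyltransferase and p53 coactivator, at -0.51 ± 0.22 (adjusted p = 0.246). With the length offset, Rpl11 was at 0.55 and Rpl5 at 0.58.

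Most genes of a senescence list had lower values in anti-CD3, and the size of their median varied between fits. Besides cell cycle genes the list holds others, such as Bcl2, Glb1, Lmnb1 and Ezh2. It mixes growth arrest genes such as Cdkn2b with proliferation genes such as Mki67, so its median gives no direction of senescence. Of 23 tested genes of a list of 25, 7 were higher and 16 lower (median -0.21), and edgeR called 0. The median was -0.02 without IgG 6, -0.05 without IgG 5 and IgG 6, -0.05 given an acinar covariate and -0.05 with limma-voom on all libraries. Over all tested genes the median was -0.05 with all libraries, -0.02 without IgG 5 and IgG 6 and -0.015 given an acinar covariate. An unadjusted p under 0.05 was found for 2, both lower, against 8.68% of all tested genes lower at that level. DESeq2 called 1, Cdk6, which was lower, against 1.23% of all its genes called lower. Cdk6, a G1 kinase, had 41.2 ± 7.33 normalised counts in anti-CD3 and 80.9 ± 20.8 in IgG (SD, n = 6 each). Its groups did not overlap, as for 1.72% of the genes in the comparison table, and IgG 6 was its highest library, at 118. Of the genes named from the other lists, Ddit4, Gadd45a, Rpl11 and Atf3 also had groups without overlap, all higher in anti-CD3. Like Cdk6, these genes were among the smallest p of their lists. The log2 fold change of Cdk6 was -0.97 ± 0.21 (SE; edgeR adjusted p = 0.0659), -0.71 given an acinar covariate and -0.74 with the length offset. Ccnd1, which encodes cyclin D1, was at -0.51 ± 0.21 and Mki67, the proliferation marker, at -1.18 ± 0.60 (SE; edgeR adjusted p = 0.215 and 0.308). With an acinar covariate Mki67 was at -0.15. Cdkn2a, whose products p16 and p19ARF are main effectors of senescence, had too few reads to be tested, with 11 counts over the 6 anti-CD3 libraries and 35 over the 6 IgG libraries, of which IgG 6 held 18. Cdkn2b, the neighbouring inhibitor gene, was at -0.50 ± 0.31 (SE; edgeR adjusted p = 0.396).

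Most secreted factors of senescent cells had lower values in anti-CD3, and the sign of their median varied between fits. Of 40 tested genes of a list of 42, 6 were higher and 34 lower (median -0.39). edgeR called 0 and DESeq2 1, where DESeq2 called 4.04% of all its genes. The unadjusted p was under 0.05 for 2 higher genes and 1 lower, against 9.68% and 8.68% of all tested genes. The median was 0.0074 without IgG 6 and -0.35 without IgG 5. Leaving out both gave 0.15, and an acinar covariate gave 0.33. Immune and stromal cells also make many of these factors. The macrophage markers were lower in 9 of 9 tested genes. Their score ran from 1.22 to 3.45 in anti-CD3 and from 1.60 to 4.68 in IgG. The fibroblast and stellate markers were lower in 10 of 10, with scores of 1.00 to 3.04 in anti-CD3 and 2.30 to 4.59 in IgG. An unadjusted p under 0.05 was found for 1 macrophage marker and for 6 fibroblast and stellate markers. For macrophage markers edgeR and DESeq2 called 0, and for fibroblast and stellate markers edgeR called 0 and DESeq2 3. In both lists IgG 6 was the highest library. For the fibroblast and stellate score IgG 2, IgG 4 and IgG 5 also lay above every anti-CD3 library, at 3.46, 3.13 and 3.21. The part of both marker lists in the secreted factor list was not tested. Vegfa, an angiogenic growth factor, went against the list at 0.65 ± 0.14 (SE; edgeR adjusted p = 0.0659), with 2265 ± 309 normalised counts in anti-CD3 and 1451 ± 228 in IgG (SD, n = 6 each). Csf1, a macrophage growth factor, was at -0.76 ± 0.24, and Mif at 0.70 ± 0.25 (SE; edgeR adjusted p = 0.136 and 0.170), or 0.20 for Mif with the length offset.

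The BCL-2 family, in a list without Bbc3 and Bax, had as many higher as lower genes. Bbc3 and Bax belong to this family too and were higher, at 0.66 and 0.30, without passing edgeR. The list holds genes that promote and genes that restrain cell death. Of 16 tested genes of a list of 17, 8 were higher and 8 lower (median 0.02, or 0.19 without IgG 6 and 0.20 given an acinar covariate). edgeR called 0 and DESeq2 2, where DESeq2 called 4.04% of all its genes. The unadjusted p was under 0.05 for 3 higher genes and 2 lower, against 9.68% and 8.68% of all tested genes. Bnip3 and Bnip3l, which promote mitophagy and respond to hypoxia, were at 1.31 ± 0.27 and 0.72 ± 0.18 (SE; edgeR adjusted p = 0.0659 and 0.0887). Bid, which links death receptors to Bax, was at -0.86 ± 0.26 (SE; edgeR adjusted p = 0.123). The anti-apoptotic genes Bcl2 and Bcl2l1 were at -0.32 ± 0.37 and 0.28 ± 0.19 (SE; edgeR adjusted p = 0.652 and 0.446); Bcl2 was at 0.08 without IgG 5 and IgG 6.

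Genes of the ATF4 and CHOP stress pathway, which can induce Gdf15 and Bbc3 without p53, had the highest median of these lists in the fit without a covariate. Of 25 tested, 23 were higher and 2 lower (median 0.51). edgeR called 0 and DESeq2 4, where DESeq2 called 4.04% of all its genes. The unadjusted p was under 0.05 for 11 higher genes and 1 lower, against 9.68% and 8.68% of all tested genes. Ddit4 and Sesn2 are in this list as well as among the other p53 target genes. The BCL-2 family list likewise shares Pmaip1 with the other p53 target genes. It shares Bcl2, Bcl2l1 and Bcl2l2 with the senescence list, so the lists are not separate sets. Ddit3, the transcription factor CHOP, had 986 ± 352 normalised counts in anti-CD3 and 345 ± 141 in IgG (SD, n = 6 each), and a log2 fold change of 1.51 ± 0.27 (SE; edgeR adjusted p = 0.0646). Atf3, a stress-induced transcription factor, was at 1.59 ± 0.32 (SE; edgeR adjusted p = 0.0659). The list had a median of 0.25 when IgG 5 and IgG 6 were left out and 0.17 given an acinar covariate, where secreted factors (0.33) and the BCL-2 family (0.20) were higher. Across libraries Ddit3 and Gdf15 did not share their order in anti-CD3: anti-CD3 6 had the highest Ddit3, at 1547, and the lowest Gdf15, at 35.0. In IgG, IgG 1 was highest for both, at 626 for Ddit3 and 181 for Gdf15. Gdf15 had only 26 counts in anti-CD3 6, and a relation between Ddit3 and Gdf15 was not tested.

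**Figure D4:**
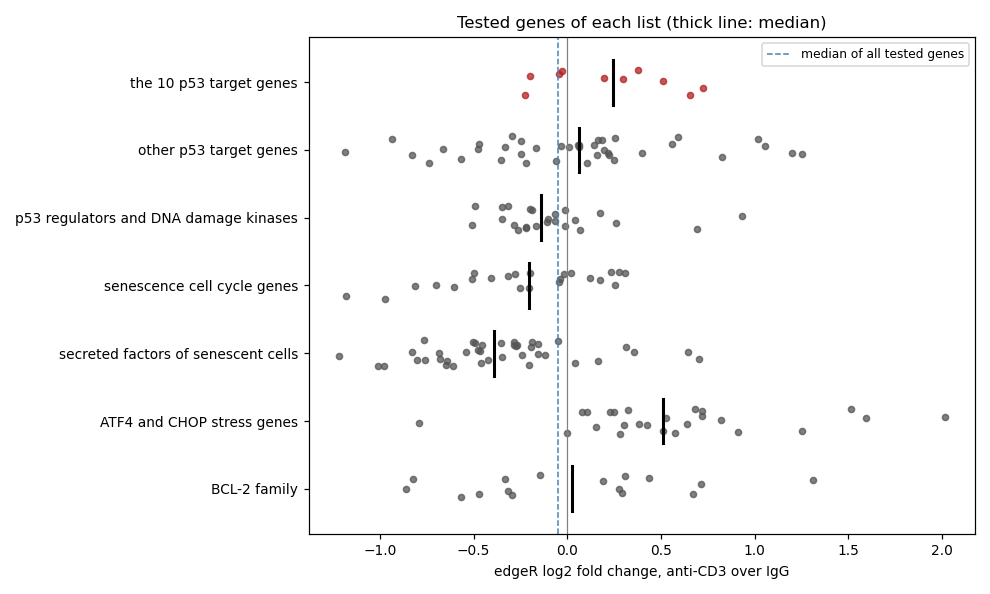
Each point is the edgeR log2 fold change of 1 tested gene, anti-CD3 over IgG, for the 10 p53 target genes (red) and for 6 lists of related genes (grey); thick lines are medians and the dashed line is the median of all tested genes, -0.05. The medians run from -0.39 for secreted factors of senescent cells to 0.51 for ATF4 and CHOP stress genes, and the 10 genes have a median of 0.25.

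On GRCm38 all 10 genes are protein-coding and values sum reads over each gene. Trp53inp1 (ENSMUSG00000028211) lies on chromosome 4 from 11156431 to 11174379, Cdkn1a (ENSMUSG00000023067) on chromosome 17 from 29090976 to 29100727, and Sesn1 (ENSMUSG00000038332) on chromosome 10 from 41809935 to 41908424. Mdm2 (ENSMUSG00000020184) lies on the same chromosome 10 from 117688875 to 117710758. Bbc3 (ENSMUSG00000002083), from 16308393 to 16318205, and Bax (ENSMUSG00000003873), from 45461697 to 45466898, are both on chromosome 7. Ccng1 (ENSMUSG00000020326) spans 40748552 to 40755311 on chromosome 11, Phlda3 (ENSMUSG00000041801) spans 135766119 to 135769136 on chromosome 1, Zmat3 (ENSMUSG00000027663) spans 32334792 to 32366014 on chromosome 3, and Gdf15 (ENSMUSG00000038508) spans 70629393 to 70632456 on chromosome 8.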

How the data were processed

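Poly(A) RNA of islets was sequenced as read pairs, per the labels. Per the submitters' processing notes, which give no order or options, Trimmomatic 0.36, STAR 2.5.2b, featureCounts of Subread 1.5.2 and DESeq2 were used with GRCm38 (mm10); no source used here gives the strand or multi-mapping settings. The authors deposited whole-number counts per gene, and a comparison table that holds normalised signal values, log2 fold changes (anti-CD3 divided by IgG) and p-values. The deposited signal equals the count divided by 1 size factor per library (0.554 to 2.52), tested on every gene. Its adjusted p is NA for 2935 genes and stayed NA. Columns were matched to samples by group and number, 1 count column carrying an unexplained prefix.

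The main test used edgeR 4.0.16 under R 4.3.3: filterByExpr (minimum count 10, minimum total 15), TMM factors (0.733 to 2.36), and the robust quasi-likelihood F test with Benjamini-Hochberg adjustment over all 13115 tested genes, two-sided. Each SE is the fold change divided by the square root of F. The exact permutation test compared mean log2(normalised count + 1) over 924 regroupings, where 0.00216 is the smallest p. Genes named are the 10 members, the 3 of smallest p in each of 6 lists, 8 fixed genes and the 5 closest to Cdkn1a. The members and lists were chosen with earlier results of these data known. Transcript lengths came from GENCODE M21. On simulated counts for anti-CD3 against IgG (12944 genes), edgeR recovered 50.0% of the 2-fold changes and 88.4% of the 4-fold changes. Alternatives were DESeq2 1.42.0, limma-voom (limma 3.58.1), other scalings, filters, covariates and omitted libraries. Lengths entered the offset as a lowess trend (span 0.3).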

Additional observations from a re-analysis of the deposited data

Results flagged for a closer look

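Among 20 groups of 6 libraries tested for a library far from the others (10 genes in 2 groups), 2 had one; chance flags about 1 in 20 groups. Bbc3 in anti-CD3 5 had 386 normalised counts, while the other 5 anti-CD3 libraries lay between 224 and 252. Gdf15 in IgG 1 had 181 normalised counts, while the other 5 IgG libraries lay between 30.4 and 77.7.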

How the results depend on the processing

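Over 280 values of the 10 genes under 28 alternatives each, 8 changed sign. Among these, Bax was at -0.011 with the length offset, Ccng1 ran from -0.10 to 0.093 and Phlda3 from -0.18 to 0.088 with 1 library left out; the cause was not tested. With medians in place of means, Ccng1 differed by 0.025 in the exact test. The number of the 10 genes called was 1 with DESeq2 and 0 in every other fit, and their median was 0.041 with the length offset. Genes called among all tested were 468 with DESeq2 (143 without IgG 5 and IgG 6), 44 with limma-voom, 167 without a filter, 6 with upper-quartile factors, 5 without robust estimation, 4 with the length offset, 1 without IgG 5 and IgG 6, 0 with the acinar score and 0 to 203 with 1 library left out (203 without anti-CD3 2). Calls in lists, where edgeR gave 0, were as follows. Other p53 targets had 6 with DESeq2 (4 without IgG 5 and IgG 6), 3 with limma-voom, 4 without a filter and 0 to 3 with 1 library left out. Regulators had 2 (1), 1, 1 and 0 to 2 in the same order. ATF4 and CHOP genes had 4 (3), 3, 2 and 0 to 3, and the BCL-2 family had 2 (1), 0, 2 and 0 to 1. The senescence list had 1 with DESeq2 and 0 to 1 with 1 library left out, and secreted factors had 1 with DESeq2 with and 1 without IgG 5 and IgG 6. With the acinar score the medians were 0.33 for secreted factors, 0.17 for ATF4 and CHOP genes and 0.20 for the BCL-2 family, which was at 0.23 with limma-voom. Of the 5 genes closest to Cdkn1a, 3 were shared with group-centred values. Same-numbered libraries deviated together with correlations of -0.29 to 0.55, and 2 of 6 correlated best with their own number. These values cannot settle whether the numbers pair the samples. With the replicate number as a block 0 genes passed, Bbc3 was at 0.85 and Trp53inp1 at 0.71 (edgeR adjusted p = 0.220 and 0.109). Depth limits Phlda3 and Cdkn2a, with at most 98 and 18 counts per library.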
